A study of Mus musculus with 18 samples.

Results

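Described here are 10 genes of Notch signalling in cells sorted from the mouse trachea. They are the receptor genes Notch1, Notch2 and Notch3, the ligand genes Dll1, Jag1 and Jag2, the target genes Hes1, Hey1 and Nrarp, and Lfng, which codes for an enzyme that modifies the receptors. The genes were chosen by name and are 10 of the 26327 genes in the deposited count table. All 10 were found there and all 10 passed the filter on low counts.

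Notch receptors are membrane proteins that are activated by ligands on neighbouring cells. Ligand binding exposes the receptor to cleavage by ADAM metalloproteases and then by gamma-secretase, and the freed intracellular domain enters the nucleus, where it joins RBPJ and Mastermind proteins to switch on targets such as the Hes and Hey repressor genes. Fringe glycosyltransferases, Lfng among them, add sugars to the receptor and change its response to Delta-like and Jagged ligands. In the airway the pathway is known for its part in the choice of basal cells, the stem cells of the lining, between secretory and ciliated fates. Brush cells, or tuft cells, make up a small chemosensory population of that lining.

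The study set tracheal brush cells against other epithelial cells and hematopoietic cells in naive mice. All mice were untreated and carried the BAC transgene Tg(RP23-268L19-EGFP)2Mik, congenic on a B6 background, so every group, the comparison cells included, had eGFP under the control of Chat, the choline acetyltransferase gene. Brush cells were CD45-, EpCAM+ and eGFP+ (7 libraries), EpCAM+ epithelial cells were CD45- and EpCAM+ (7 libraries), and CD45+ cells made up 4 libraries. The EpCAM+ gate as worded does not exclude eGFP+ cells. Ages, sexes and the number of animals per library are not given, and no label says that libraries of 1 group came from separate animals, so the spread that p-values measure is that between these libraries alone and may be technical.

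Brush libraries held 838328 to 6031711 counts each, EpCAM+ libraries 2442601 to 6087184 and CD45+ libraries 371652 to 7438791. Of these counts, 22.7 to 60.9% in brush cells, 8.76 to 31.3% in EpCAM+ cells and 18.9 to 38.3% in CD45+ cells lay in ribosomal RNA genes. A set of 3 libraries stood apart: brush replicate 4 and CD45+ replicate 1 had the lowest totals and the highest ribosomal shares of their groups, and EpCAM+ replicate 5 had the lowest ribosomal share of all. The markers followed the labels. Summed over 8 brush cell markers, among them the channel Trpm5, brush libraries held 8666 to 10226 CPM (counts scaled to the library total by the TMM method), EpCAM+ libraries 8.07 to 33.7 and CD45+ libraries 0 to 59.1. Summed over 8 leukocyte markers, brush libraries held 84.8 to 224 CPM, EpCAM+ libraries 8.76 to 41.6 CPM and CD45+ libraries 6855 to 8243 CPM. A single gene, Lcp1, made up most of this sum in brush and EpCAM+ cells, with means of 106 and 24.0 CPM.

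The promoters of 8 of the 10 genes were found in RefSeq (GRCm38.p6), as windows of 300 bases, 250 before and 50 after the transcription start. Dll1 had 2 windows, and Hes1 and Hey1 had none. Each window was searched on both strands for 3 motifs: GTGGGAA, a core of the RBPJ site; CACGTG, an E-box of the kind that Hey proteins can bind; and the octamer ATGCAAAT of POU proteins, the family of the brush cell factor Pou2f3. These motifs were chosen after the letters of the windows had been read, and a match is a description of the letters and not of binding. The 3 windows that held a match are shown in lower case with the match in capitals, so that the letters of the Lfng, Nrarp and Dll1 promoters can be read beside the values of these genes.
Lfng promoter, chr5:140607091-140607390, plus strand: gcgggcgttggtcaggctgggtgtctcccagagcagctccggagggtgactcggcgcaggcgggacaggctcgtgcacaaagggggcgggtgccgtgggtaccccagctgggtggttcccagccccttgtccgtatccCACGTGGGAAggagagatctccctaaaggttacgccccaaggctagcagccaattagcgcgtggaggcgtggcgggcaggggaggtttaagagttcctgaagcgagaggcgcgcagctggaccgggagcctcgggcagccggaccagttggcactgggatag
Nrarp promoter, chr2:25180508-25180807, plus strand: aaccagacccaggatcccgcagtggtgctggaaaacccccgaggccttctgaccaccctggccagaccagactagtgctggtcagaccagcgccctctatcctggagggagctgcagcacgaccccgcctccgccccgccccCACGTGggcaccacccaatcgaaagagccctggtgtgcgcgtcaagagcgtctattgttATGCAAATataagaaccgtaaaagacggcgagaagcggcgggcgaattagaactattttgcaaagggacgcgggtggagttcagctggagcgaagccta
Dll1 promoter, chr17:15375774-15376073, minus strand: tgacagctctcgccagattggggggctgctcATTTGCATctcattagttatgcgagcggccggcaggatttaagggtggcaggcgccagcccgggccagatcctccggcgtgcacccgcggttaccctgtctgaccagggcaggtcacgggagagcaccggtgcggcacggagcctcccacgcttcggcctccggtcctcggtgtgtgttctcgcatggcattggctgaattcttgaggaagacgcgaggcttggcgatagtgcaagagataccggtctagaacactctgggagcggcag
In the Lfng window the E-box begins at base 139 and the RBPJ core at base 142, and they overlap. In the Nrarp window the E-box begins at base 143 and the octamer at base 202. In the Dll1 window the octamer, on the opposite strand, begins at base 32. Of 32851 mouse promoter windows of this length, 6.38% held GTGGGAA, 7.15% held CACGTG and 1.74% held ATGCAAAT.

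Most of the receptor, ligand and target genes had lower levels in brush cells than in EpCAM+ cells. With edgeR's quasi-likelihood F test and an adjusted p below 0.05 over 13418 genes, 7 of the 10 members were lower in brush cells (Notch1, Notch2, Notch3, Jag1, Jag2, Hes1 and Hey1), 1 was higher (Lfng) and 2 did not pass (Dll1 and Nrarp). The background is large, since 40.3% of all genes tested were called in this comparison, 22.0% lower and 18.3% higher in brush cells. Without the 3 libraries that stood apart 9 members were called, 8 lower, with Dll1 added to those above, and 1 higher. The median log2 fold change of the members was -1.84 and that of all genes tested was -0.06. Hes1 and Hey1 owe their place among the genes tested to their EpCAM+ counts, so their difference is tied to their passing. Notch1 and Jag1 reached the level of the filter in 2 brush libraries each and in all 7 EpCAM+ and 4 CD45+ libraries. That level was 2.43 CPM on library totals without TMM scaling, so it cannot be read directly against the TMM-scaled CPM given here. In these bulk samples, fewer cells of a type that express a gene and less RNA of it per cell cannot be told apart.

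**Figure D1:**
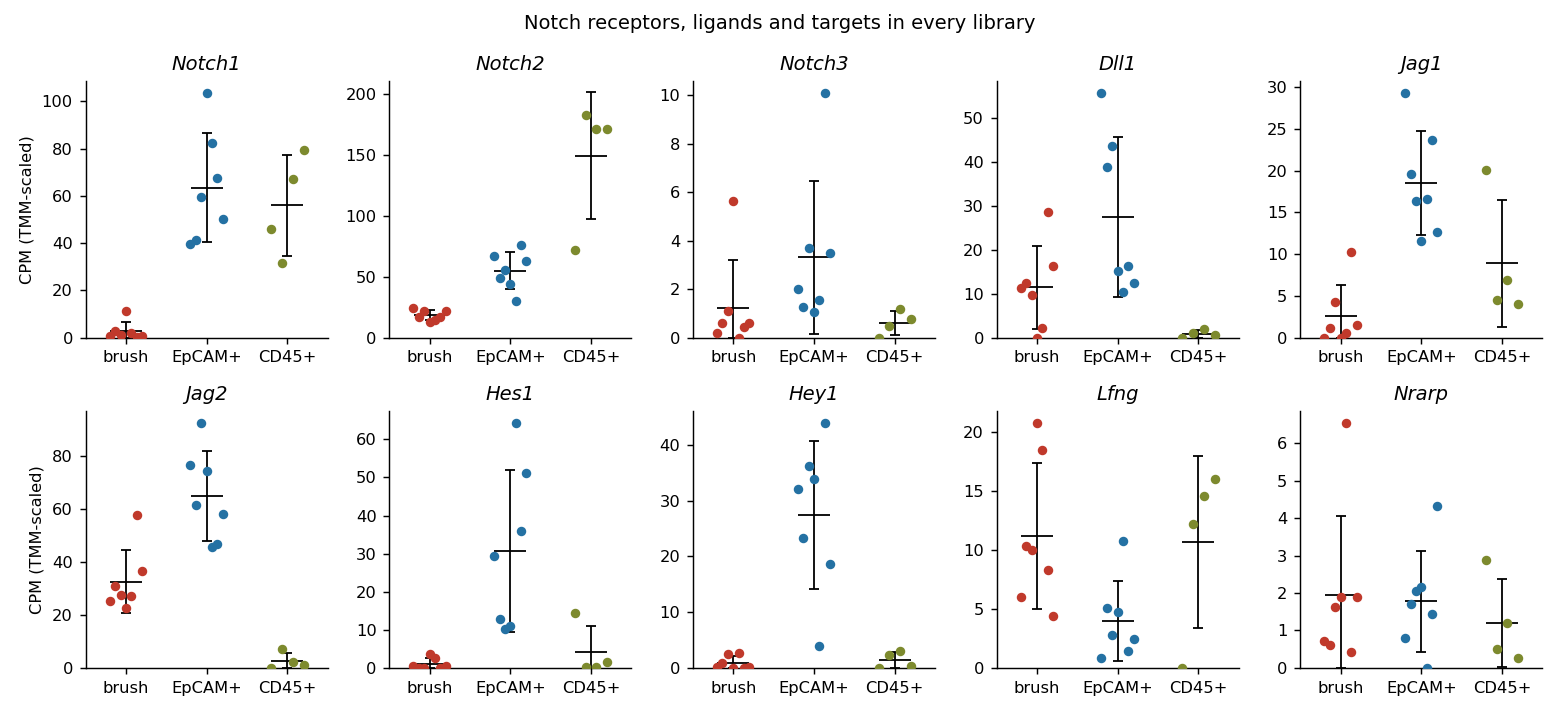
Each point is 1 library, with CPM (TMM-scaled) on a linear axis from 0 and brush, EpCAM+ and CD45+ cells from left to right. The bar is the group mean and the whiskers are 1 SD, stopped at 0 (n = 7 brush, 7 EpCAM+ and 4 CD45+ libraries). For Notch1, Notch2, Jag1, Hes1 and Hey1 no brush library reaches the lowest EpCAM+ library, whereas no library exceeds 6.53 CPM of Nrarp.

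Among the receptors, Notch1 stood near the limit of detection in brush cells. It had 0.427 to 11.3 CPM with a median of 1.08 in brush libraries, against 39.7 to 103 CPM with a median of 59.4 in EpCAM+ libraries. The 4 CD45+ libraries had 46.0, 31.7, 67.0 and 79.5 CPM. All brush libraries lay below all libraries of both other groups, although only 42 counts in all stand behind the brush values. The highest of them, 11.3 CPM in brush replicate 4, rests on 6 counts, and without that library the brush mean was 1.39 ± 1.01 CPM (SD, n = 6). The log2 fold change of Notch1 in brush cells was -5.19 ± 0.51 (SE) against EpCAM+ cells (adjusted p = 2.55e-08) and -5.02 ± 0.54 against CD45+ cells (adjusted p = 5.74e-08). EpCAM+ against CD45+ cells it was 0.17 ± 0.46 and did not pass (adjusted p = 0.819). Notch1 lies on mouse chromosome 2 (26457903 to 26516663, minus strand, GENCODE vM21 on GRCm38), and its exons overlap 2 genes on the other strand, 0610009E02Rik and Gm13568. The strand setting of the counting is not given, so reads of such partners cannot be told apart.

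Notch2 stood in a graded order over the 3 groups, lowest in brush cells and highest in CD45+ cells. Its mean was 18.6 ± 4.23 CPM in brush and 55.0 ± 15.5 CPM in EpCAM+ cells (SD, n = 7 each). In CD45+ cells the 4 libraries had 71.8, 182, 172 and 171 CPM, and without the shallow replicate 1 their mean was 175 ± 6.39 CPM (SD, n = 3). The brush values, 13.2 to 24.5 CPM, lay below every EpCAM+ value, 30.2 to 76.4 CPM, while EpCAM+ and CD45+ ranges met at the lowest CD45+ library. It differed by -1.54 ± 0.26 on the log2 scale in brush against EpCAM+ cells (adjusted p = 5.05e-05), -2.995 ± 0.30 in brush against CD45+ cells (adjusted p = 1.81e-08) and -1.46 ± 0.29 in EpCAM+ against CD45+ cells (adjusted p = 0.000242). The gene lies on chromosome 3 (98013527 to 98150361, plus strand).

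Notch3, a receptor best known from smooth muscle and pericytes, was close to the counting limit in every group. It had 18 counts over the 7 brush libraries, 92 over the 7 EpCAM+ libraries and 16 over the 4 CD45+ libraries. Means were 1.22 ± 1.99 CPM in brush cells, 3.32 ± 3.17 in EpCAM+ cells and 0.616 ± 0.504 in CD45+ cells, and the ranges of all groups overlapped. Single libraries carried these means: without brush replicate 4 (5.66 CPM from 3 counts) the brush mean was 0.482 ± 0.379 CPM, and without EpCAM+ replicate 6 (10.1 CPM from 35 counts) the EpCAM+ mean was 2.19 ± 1.15 CPM (SD, n = 6 each). Notch3 reached the level of the filter in 1 brush and 3 EpCAM+ libraries, and without any 1 of these 4 it was not tested. It was lower in brush than in EpCAM+ cells (log2 fold change -2.15 ± 0.72, adjusted p = 0.0203). The other 2 comparisons did not pass, at -0.15 ± 0.83 in brush against CD45+ cells (adjusted p = 0.904) and 1.99 ± 0.86 in EpCAM+ against CD45+ cells (adjusted p = 0.0684). The RSEM tables assigned only 65.1% as many reads to Notch3 as the count table did, and an antisense gene, Gm17276, overlaps its exons (chromosome 17, 32120820 to 32166852, minus strand).

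Of the ligands, Jag2 had the highest mean TPM in brush cells, the scale that allows for transcript length. Its CPM there were 22.6 to 57.6 CPM with a median of 27.4, against 45.7 to 92.3 CPM with a median of 61.4 in EpCAM+ cells. The CD45+ libraries had 0, 6.98, 2.19 and 1.02 CPM. Brush and EpCAM+ ranges overlapped through brush replicate 6, and both lay above every CD45+ library. On the log2 scale the difference was -0.98 ± 0.32 in brush against EpCAM+ cells (adjusted p = 0.018), 3.40 ± 0.49 in brush against CD45+ cells (adjusted p = 3.49e-06) and 4.38 ± 0.50 in EpCAM+ against CD45+ cells (adjusted p = 1.72e-07). Jag2 lies on chromosome 12 (112907819 to 112929776, minus strand).

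Dll1, a Delta-like ligand, was likewise a gene of both epithelial groups. Brush libraries had 0 to 28.6 CPM with a median of 11.2, EpCAM+ libraries 10.5 to 55.7 CPM with a median of 16.4, and CD45+ libraries 0, 0.997, 2.08 and 0.508 CPM. The EpCAM+ libraries fell apart into 3 with 38.9 to 55.7 CPM and 4 with 10.5 to 16.4 CPM. Log2 fold changes were 3.29 ± 0.78 in brush against CD45+ cells (adjusted p = 0.00118) and 4.44 ± 0.80 in EpCAM+ against CD45+ cells (adjusted p = 7.66e-05). Brush against EpCAM+ cells gave -1.15 ± 0.50 and did not pass (adjusted p = 0.0695). It passed without brush replicate 6 (-1.502, adjusted p = 0.0227), without EpCAM+ replicate 5 (-1.27, adjusted p = 0.0368), without the 3 libraries that stood apart (-1.13, adjusted p = 0.0476) and without ribosomal RNA genes (-1.27, adjusted p = 0.0454). Dll1 (chromosome 17, 15367354 to 15376872, minus strand) shares exonic bases with A930024N18Rik on the other strand.

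Jag1, a Jagged ligand on chromosome 2 (137081456 to 137116644, minus strand), was low in brush cells. It had 0 to 10.2 CPM with a median of 1.22 in brush libraries, against 11.6 to 29.3 CPM with a median of 16.7 in EpCAM+ libraries, and the 2 ranges did not overlap. The CD45+ libraries had 20.1, 4.49, 6.90 and 4.06 CPM, the highest of them from 7 counts in replicate 1. Of the 84 brush counts, 48 came from brush replicate 6. Jag1 had a log2 fold change of -2.68 ± 0.62 in brush against EpCAM+ cells (adjusted p = 0.00117). It was -1.29 ± 0.74 in brush against CD45+ cells (adjusted p = 0.163), where leaving out brush replicate 6 gave -2.23 (adjusted p = 0.00952), and 1.39 ± 0.75 in EpCAM+ against CD45+ cells (adjusted p = 0.152).

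**Figure D2:**
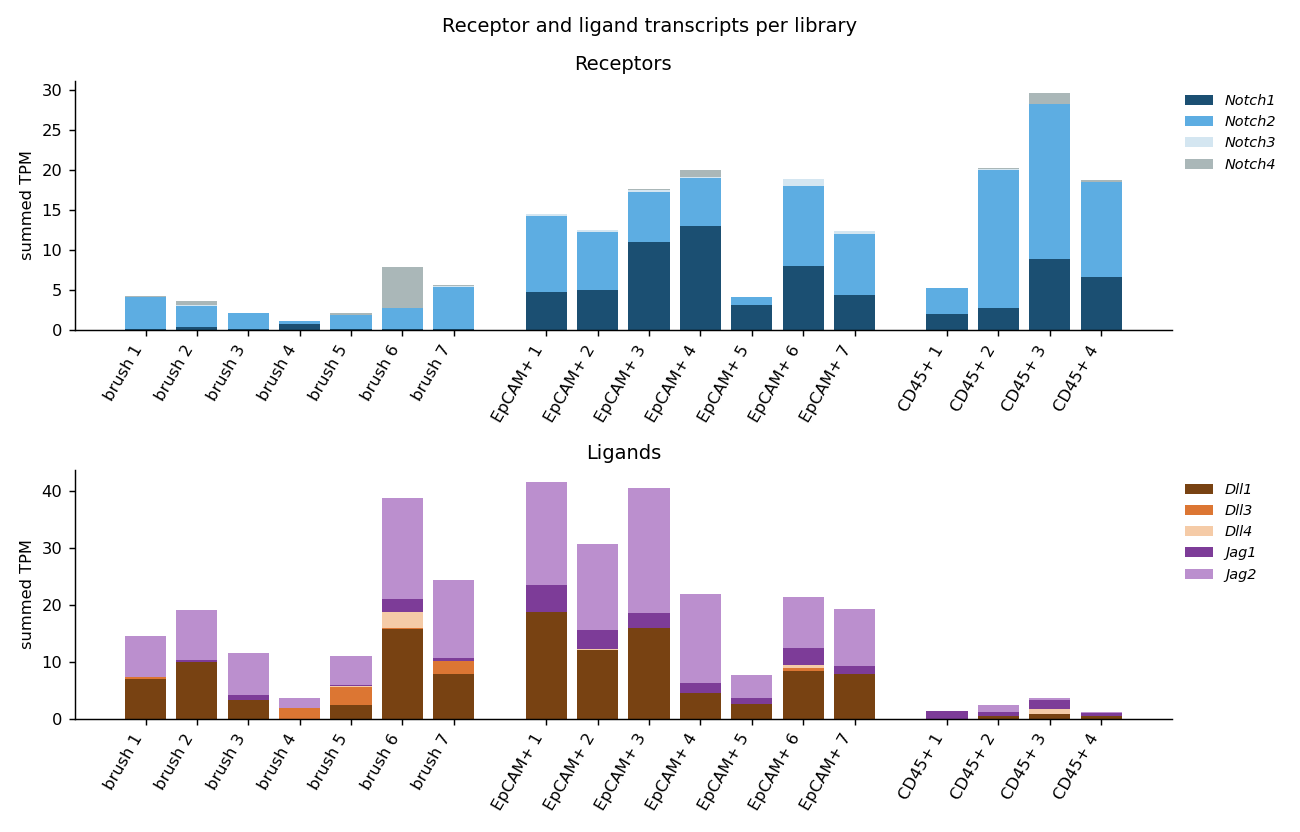
Stacked bars give the summed TPM (length-scaled transcript abundance, deposited RSEM values) of the 4 receptors (top) and the 5 Delta-like and Jagged ligands (bottom) in each library, with brush, EpCAM+ and CD45+ libraries from left to right. Receptor sums average 3.83 TPM in brush, 14.3 in EpCAM+ and 18.5 in CD45+ cells, and ligand sums average 17.6 TPM in brush, 26.2 in EpCAM+ and 2.12 in CD45+ cells.

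Per unit of transcript length, receptors and ligands stood in different proportions in the 3 groups. The 4 receptor genes together held 3.83 ± 2.35 TPM in brush cells, 14.3 ± 5.4 in EpCAM+ cells and 18.5 ± 10.1 in CD45+ cells. The 5 ligand genes held 17.6 ± 11.4 TPM in brush, 26.2 ± 12.2 in EpCAM+ and 2.12 ± 1.14 in CD45+ cells (SD over libraries). Notch2 made up 73.1 ± 26.7% of receptor TPM in brush cells, 46.9 ± 17.1% in EpCAM+ cells and 68.9 ± 11.1% in CD45+ cells, and Notch1 made up 50.5 ± 17.0% in EpCAM+ and 29.3 ± 11.2% in CD45+ cells. In brush cells the Notch1 share was 12.7 ± 22.3% (n = 7) with a median of 5.69%, and without brush replicate 4, where 6 counts gave 62.8%, it was 4.35 ± 3.44% (n = 6). The Notch4 share of brush cells had a median of 3.53% and reached 64.9% in brush replicate 6, from 12 counts. That library had 5.15 TPM and 2.56 CPM of Notch4, whereas brush replicate 5 had 0.24 TPM and 2.72 CPM. Jag2 held 50.9 ± 6.73% of ligand TPM in brush cells and 52.0 ± 9.61% in EpCAM+ cells. The ligand Dll3, which fell below the filter, held 13.5 ± 19.9% in brush cells and 0.321 ± 0.849% in EpCAM+ cells. Its brush share had a median of 3.11% and reached 51.8% in brush replicate 4, from 5 counts. Dll3 had 38 counts in brush, 3 in EpCAM+ and 4 in CD45+ cells. In CD45+ cells Jag1 held 54.9 ± 31.1% of a small sum. These shares and sums are descriptions, without a test.

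The receptor Notch4 and the ligand Dll4, both best known from endothelial cells, fell below the filter and were not tested. Notch4 had 40 counts in brush cells, 9 in EpCAM+ cells and 40 in CD45+ cells, and Dll4 had 35 in brush, 10 in EpCAM+ and 24 in CD45+ cells. Brush replicate 6 held the highest Dll4 value of all libraries, 5.97 CPM. Of 8 endothelial markers, 3 were tested in brush against EpCAM+ cells and 1, Tek, was higher (55.7 CPM in brush and 0.192 CPM in EpCAM+ cells). Of all genes tested, 18.3% were higher in that comparison. The list summed to 26.4 to 103 CPM in brush libraries, 0.401 to 5.24 CPM in EpCAM+ libraries and 23.1 to 105 CPM in CD45+ libraries. Over the brush libraries Tek had 2003 counts, Vwf 85, Tie1 5, Pecam1 3, Kdr 1 and Emcn 1, and Cdh5 and Cldn5 had none. The part of such cells in the Notch4 and Dll4 counts was not tested.

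The targets Hes1 and Hey1, which code for repressors induced by Notch in many tissues, were low in brush cells and high in EpCAM+ cells. Hes1 had 0 to 3.77 CPM with a median of 0.544 in brush libraries, from 15 counts in all, with 3 libraries at 0. EpCAM+ libraries had 10.2 to 64.2 CPM with a median of 29.3, all above every brush library. In CD45+ libraries Hes1 had 14.4, 0.249, 0.219 and 1.52 CPM, the highest from 5 counts in replicate 1, and without it the mean was 0.664 ± 0.745 CPM (SD, n = 3). Its log2 fold change was -5.68 ± 0.86 in brush against EpCAM+ cells (adjusted p = 1.08e-05) and 4.56 ± 1.09 in EpCAM+ against CD45+ cells (adjusted p = 0.00149). Brush against CD45+ cells gave -1.12 ± 1.2 and did not pass (adjusted p = 0.476).

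Hey1 had 0 to 2.72 CPM with a median of 0.181 in brush libraries, against 4.01 to 43.8 CPM with a median of 32.1 in EpCAM+ libraries. The CD45+ libraries had 0, 2.24, 2.96 and 0.254 CPM. Again no brush library reached an EpCAM+ library. For Hey1 the log2 fold change was -5.06 ± 0.70 in brush against EpCAM+ cells (adjusted p = 3.52e-06), 3.91 ± 0.82 in EpCAM+ against CD45+ cells (adjusted p = 0.000412) and -1.15 ± 0.84 in brush against CD45+ cells (adjusted p = 0.278). Among EpCAM+ libraries the 2 targets did not keep step: EpCAM+ replicate 5 had the highest Hes1 level, 64.2 CPM, and the lowest Hey1 level, 4.01 CPM. Hes1 lies on chromosome 16 (30064384 to 30067796, plus strand) and Hey1 on chromosome 3 (8663359 to 8667256, minus strand), and neither overlaps another annotated gene.

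Hes1 can be induced by signals other than Notch. Summed over 8 immediate early and stress genes known to rise when tissue is dissociated, brush libraries held 2800 to 4182 CPM, EpCAM+ libraries 14595 to 29268 CPM and CD45+ libraries 3439 to 17799 CPM. All 8 genes were lower in brush than in EpCAM+ cells, where 22.0% of all genes tested were lower. The part of these 8 genes in the Hes1 difference was not tested.

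Nrarp, a small ankyrin repeat protein that is a Notch target and dampens the signal, did not follow Hes1 and Hey1 in these values. Mean CPM were 1.96 ± 2.11 in brush cells (44 counts), 1.78 ± 1.35 in EpCAM+ cells (58 counts) and 1.21 ± 1.18 in CD45+ cells (15 counts). Without brush replicate 5 the brush mean was 1.196 ± 0.681 CPM (SD, n = 6). Its log2 fold change was -0.02 ± 0.61 in brush against EpCAM+ cells (adjusted p = 0.994), 1.09 ± 0.91 in brush against CD45+ cells (adjusted p = 0.35) and 1.11 ± 0.89 in EpCAM+ against CD45+ cells (adjusted p = 0.357). No difference was detectable at this depth, and between brush and EpCAM+ cells a change of 2-fold in either direction lies within 2 SE. The antisense gene Gm38287 covers most of the 2582 exonic bases of Nrarp (chromosome 2, 25180758 to 25183339, plus strand).

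**Figure D3:**
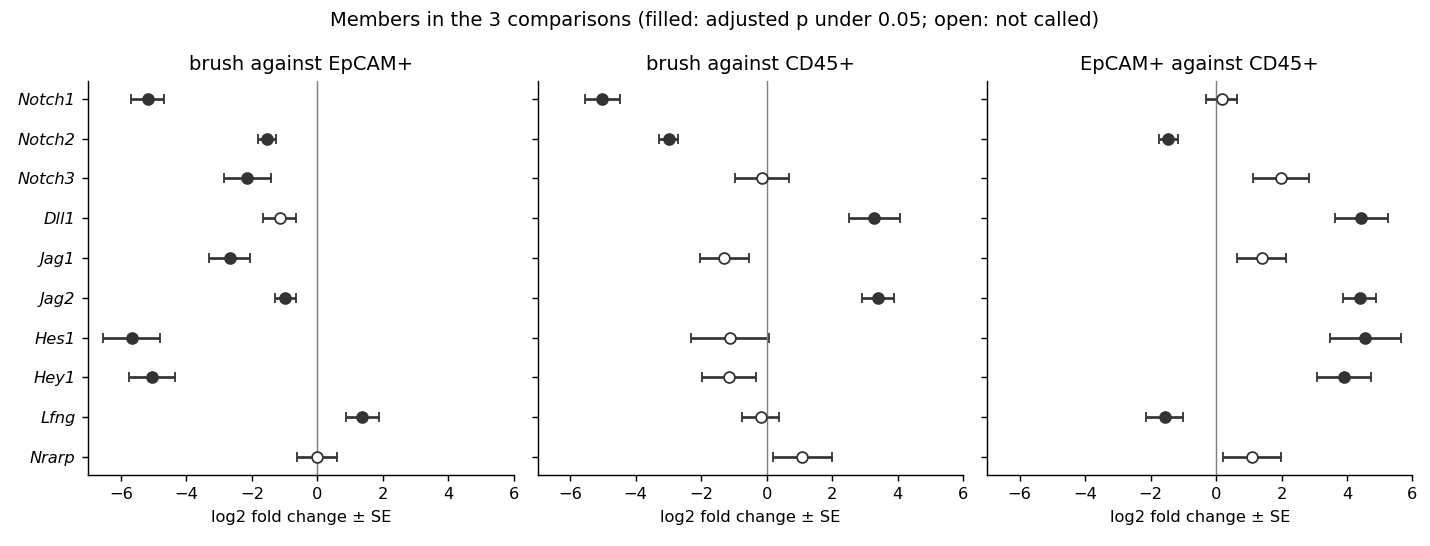
Points give the log2 fold change of each member and whiskers its SE, for brush against EpCAM+ cells, brush against CD45+ cells and EpCAM+ against CD45+ cells, with positive values higher in the group named earlier. Filled points passed an adjusted p of 0.05. Hes1, Notch1 and Hey1 lie beyond -5 in the left panel, and Lfng is its only filled point above 0.

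Against CD45+ cells, 2 members were higher in brush cells (Dll1 and Jag2), 2 were lower (Notch1 and Notch2) and 6 did not pass, where 45.8% of all genes tested were called, 23.4% higher and 22.4% lower. In EpCAM+ against CD45+ cells 4 were higher (Dll1, Jag2, Hes1 and Hey1), 2 were lower (Notch2 and Lfng) and 4 did not pass, with 40.5% of all genes called, 22.5% higher and 18.1% lower. Ranges did not overlap for 5 members in brush against EpCAM+ cells, all lower in brush cells, where 20.3% of all genes had ranges apart, 9.54% higher and 10.7% lower. In brush against CD45+ cells ranges were apart for Jag2, higher in brush cells, and for Notch1 and Notch2, lower, where 30.5% of all genes had ranges apart, 16.8% higher and 13.8% lower. In EpCAM+ against CD45+ cells they were apart for Dll1, Jag2 and Hey1, all higher in EpCAM+ cells, where 27.2% of all genes had ranges apart, 15.9% higher and 11.4% lower. The 3 comparisons share libraries and are not independent of each other.

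Lfng, lunatic fringe (chromosome 5, 140607320 to 140615545, plus strand), was the only member called higher in brush than in EpCAM+ cells. Brush libraries had 4.40 to 20.7 CPM with a median of 10.02, against 0.802 to 10.8 CPM with a median of 2.79 in EpCAM+ libraries. The CD45+ libraries had 0, 12.2, 14.6 and 16.0 CPM, with the 0 in replicate 1, the shallowest library. Brush and EpCAM+ ranges overlapped. Its log2 fold change was 1.38 ± 0.51 in brush against EpCAM+ cells (adjusted p = 0.0351) and -1.57 ± 0.57 in EpCAM+ against CD45+ cells (adjusted p = 0.0303), while brush against CD45+ cells gave -0.19 ± 0.58 and did not pass (adjusted p = 0.819). The brush against EpCAM+ call was lost without any 1 of brush replicates 2, 3, 4 and 5 or EpCAM+ replicates 1, 3, 4, 6 and 7, with adjusted p between 0.0588 and 0.0837. The EpCAM+ against CD45+ call was lost without any 1 of EpCAM+ replicates 1, 3, 4, 6 and 7 or CD45+ replicates 2, 3 and 4, with adjusted p between 0.0513 and 0.104.

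Of the other 2 fringe genes, Mfng, manic fringe, had 6.07 to 13.6 CPM with a median of 8.94 in brush libraries, no count in 6 of the 7 EpCAM+ libraries, and 34.9 to 66.1 CPM in CD45+ libraries. Its ranges were apart in all comparisons, with log2 fold changes of 5.86 ± 0.59 in brush against EpCAM+ cells (adjusted p = 3.33e-08), -2.28 ± 0.44 in brush against CD45+ cells (adjusted p = 0.000145) and -8.14 ± 0.61 in EpCAM+ against CD45+ cells (adjusted p = 2.82e-10). The EpCAM+ value rests on 4 counts, so the fitted folds against it depend on the prior count. Mfng reached the level of the filter in 7 brush, 4 CD45+ and no EpCAM+ libraries. Its differences from EpCAM+ cells are therefore tied to its passing. Beside this, 6 of 8 leukocyte markers were also called higher in brush than in EpCAM+ cells, where 18.3% of all genes tested were. The markers did not run alike. The pan-leukocyte gene Ptprc averaged 21 CPM in brush, 0.0385 in EpCAM+ and 962 in CD45+ cells. Cd52 went the other way, with 2 counts in brush and 17 in EpCAM+ cells, and Coro1a had 23 and 6, both uncalled. Tyrobp and Cd53 were called on 22 and 18 brush counts. The part of leukocytes in the Mfng level of brush cells was not tested. Rfng, radical fringe, averaged 11.8 ± 5.23 CPM in brush cells, 20.1 ± 8.39 in EpCAM+ cells and 4.72 ± 4.34 in CD45+ cells, and its ranges overlapped in all 3 comparisons. The Rfng difference passed in EpCAM+ against CD45+ cells (1.80 ± 0.51, adjusted p = 0.0058) and did not pass in brush against EpCAM+ cells (-0.74 ± 0.39, adjusted p = 0.137) or brush against CD45+ cells (1.06 ± 0.50, adjusted p = 0.0872).

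**Figure D4:**
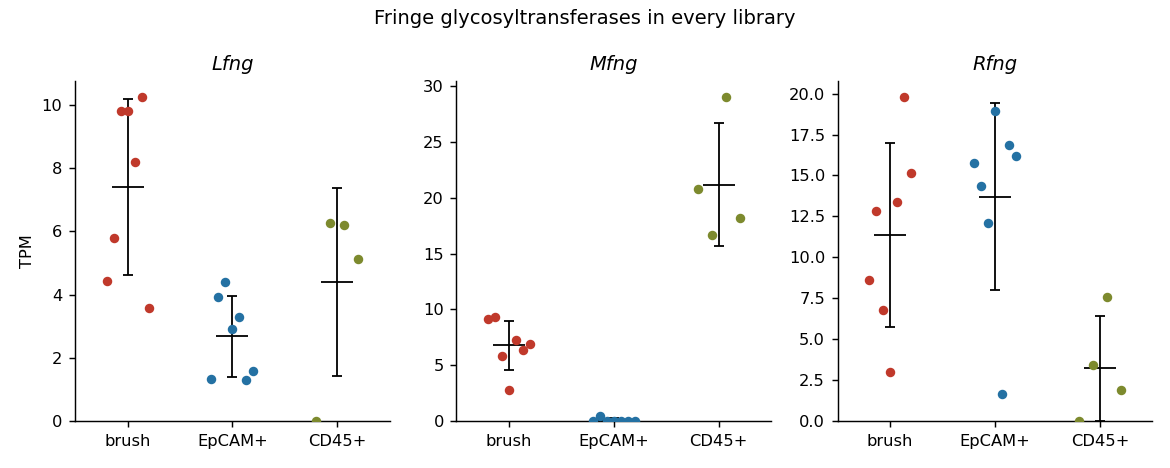
Each point is the TPM of 1 library for Lfng, Mfng and Rfng, with the group mean and 1 SD (whiskers stopped at 0), and brush, EpCAM+ and CD45+ cells from left to right. Mfng averages 6.79 TPM in brush, 0.0643 in EpCAM+ and 21.2 in CD45+ cells.

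In TPM the fringe genes summed to 25.6 ± 6.51 in brush cells, 16.4 ± 5.35 in EpCAM+ cells and 28.8 ± 9.64 in CD45+ cells. Brush cells held all 3: Lfng 31.2 ± 16.9%, Mfng 26.8 ± 8.36% and Rfng 42.0 ± 13.9%. Without brush replicate 4, where Lfng held 63.1%, these were 25.8 ± 10.3%, 28.3 ± 8.05% and 45.8 ± 10.4% (n = 6). In EpCAM+ cells Rfng held 78.0 ± 21.1% and Mfng 0.344 ± 0.909%, and without EpCAM+ replicate 5 Rfng held 85.5 ± 8.46% (n = 6). In CD45+ cells Mfng held 75.8 ± 16.6%, and without CD45+ replicate 1, where it held 100%, 67.7 ± 4.51% (n = 3).

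Ranked by mean TPM within brush cells, the order was Jag2 (8.82 ± 5.36), Lfng (7.41 ± 2.78), Dll1 (6.57 ± 5.32) and Notch2 (2.70 ± 1.58), with the other 6 members below 1 TPM. The leading genes did not separate beyond their spread, since Jag2 exceeded Lfng in 4 of 7 libraries and Lfng exceeded Dll1 in 3 of 7. Dll1 exceeded Notch2 in 6 of 7. In EpCAM+ cells the order was led by Hes1 (20.5 ± 12.7 TPM), Jag2 (13.4 ± 6.09), Hey1 (12.4 ± 6.48) and Dll1 (10.03 ± 5.93), followed by Notch1 (7.03 ± 3.73) and Notch2 (6.84 ± 3.01). Hes1 exceeded Jag2 in 4 of 7 EpCAM+ libraries and Hey1 exceeded Dll1 in 3 of 7, so neighbours there overlapped as well. In CD45+ cells Notch2 led with 13.0 ± 7.22 TPM and exceeded Notch1 (5.06 ± 3.24) in 4 of 4 libraries, followed by Lfng (4.40 ± 2.98). Hes1 thus had the highest mean of the 10 in EpCAM+ cells and 0.744 ± 1.13 TPM in brush cells.

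The rest of the pathway was read from a list of 67 genes, members included, of which 55 passed the filter. Of the 45 tested genes that are not members, 13 were higher and 4 lower in brush than in EpCAM+ cells, and 28 did not pass. Against CD45+ cells 6 were higher and 7 lower in brush cells, and in EpCAM+ against CD45+ cells 5 were higher and 9 lower. All genes tested were called more often, at 40.3% in brush against EpCAM+ cells, 45.8% in brush against CD45+ cells and 40.5% in EpCAM+ against CD45+ cells, so the counts of calls are no result about the list. Its 13 of 45 higher in brush than in EpCAM+ cells lie above the 18.3% of all genes in that direction, and no test of that difference was made.

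By role, the machinery that cuts the receptor was present in brush cells. Of 10 cleavage genes 4 were higher in brush than in EpCAM+ cells and 6 did not pass, where 18.3% of all genes tested were higher and 22.0% lower. The role lists are short and their counts were not tested against these shares, so they are no result about a role. The gamma-secretase subunit genes among them were Aph1b (2.27 ± 0.44, adjusted p = 0.000221), Aph1c (2.39 ± 0.61), Ncstn (1.42 ± 0.35) and Psen2 (1.13 ± 0.29). Against CD45+ cells Aph1c was lower in EpCAM+ cells (-4.28 ± 0.66, adjusted p = 1.15e-05) and in brush cells (-1.89 ± 0.61, adjusted p = 0.0136). Aph1b and Aph1c are near-identical copies, and how reads shared between them were assigned is not given. Adam10, the protease of the earlier cut, averaged 22.7 ± 6.98 CPM in brush cells, 25.1 ± 13.9 in EpCAM+ cells and 34.6 ± 16.5 in CD45+ cells and did not pass in any comparison. Furin, which processes the receptor precursor, was lower in brush than in CD45+ cells (-2.30 ± 0.31, adjusted p = 1.31e-06).

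On the ligand side, 1 of the 4 ubiquitin ligase genes that prime ligands for endocytosis was called, higher in brush cells. Of all genes tested, 18.3% were higher in brush than in EpCAM+ cells and 23.4% higher than in CD45+ cells. Neurl1a averaged 47.2 ± 9.64 CPM in brush cells, 3.39 ± 1.15 in EpCAM+ cells and 3.70 ± 4.25 in CD45+ cells, and brush libraries lay above all others. Its log2 fold change was 3.80 ± 0.38 against EpCAM+ cells (adjusted p = 2.68e-08) and 3.43 ± 0.48 against CD45+ cells (adjusted p = 2.74e-06). Dlk2, a Delta-like homologue without the usual receptor-binding domain, ran the other way, with 1.59 ± 3.19 CPM in brush, 111 ± 52.1 in EpCAM+ and 0.846 ± 0.987 in CD45+ cells (-6.48 ± 0.82 in brush against EpCAM+ cells, adjusted p = 8.92e-07). Dlk2 reached the level of the filter in 7 EpCAM+ libraries, 1 brush library and no CD45+ library, so this difference, too, is tied to its passing. The gene is also 1 of the 10 basal cell markers counted below, so the 2 results are not separate.

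Of the nuclear complex, Rbpj, which codes for the DNA-binding partner of all Notch receptors, averaged 7.11 ± 2.64 CPM in brush cells and 8.41 ± 1.88 in EpCAM+ cells, and the difference did not pass (-0.17 ± 0.30, adjusted p = 0.7). It averaged 60.1 ± 25.5 CPM in CD45+ cells, with brush cells lower by log2 fold change (-2.98 ± 0.34, adjusted p = 1.6e-07). The Mastermind coactivators moved in opposite directions in brush against EpCAM+ cells: Maml1 was higher (1.43 ± 0.30, adjusted p = 0.000571) and Maml2 lower (-1.63 ± 0.28, adjusted p = 5.89e-05). Among 10 corepressors 3 were higher and 1 lower in brush than in EpCAM+ cells, where 18.3% of all genes tested were higher and 22.0% lower. Hdac1, a histone deacetylase, had 101 ± 15.5 CPM in brush and 35.6 ± 6.66 CPM in EpCAM+ cells (1.5 ± 0.21, adjusted p = 3.61e-06), and Tle4, a Groucho corepressor, differed by 1.49 ± 0.31. Tle4 was lower in EpCAM+ than in CD45+ cells (-1.28 ± 0.37, adjusted p = 0.00674). Tle2, of the same family, separated both epithelial groups from CD45+ cells, at log2 fold changes of 3.48 ± 0.41 in brush and 2.77 ± 0.40 in EpCAM+ cells. It was also called higher in brush than in EpCAM+ cells (0.71 ± 0.28, adjusted p = 0.0425), with overlapping ranges.

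**Figure D5:**
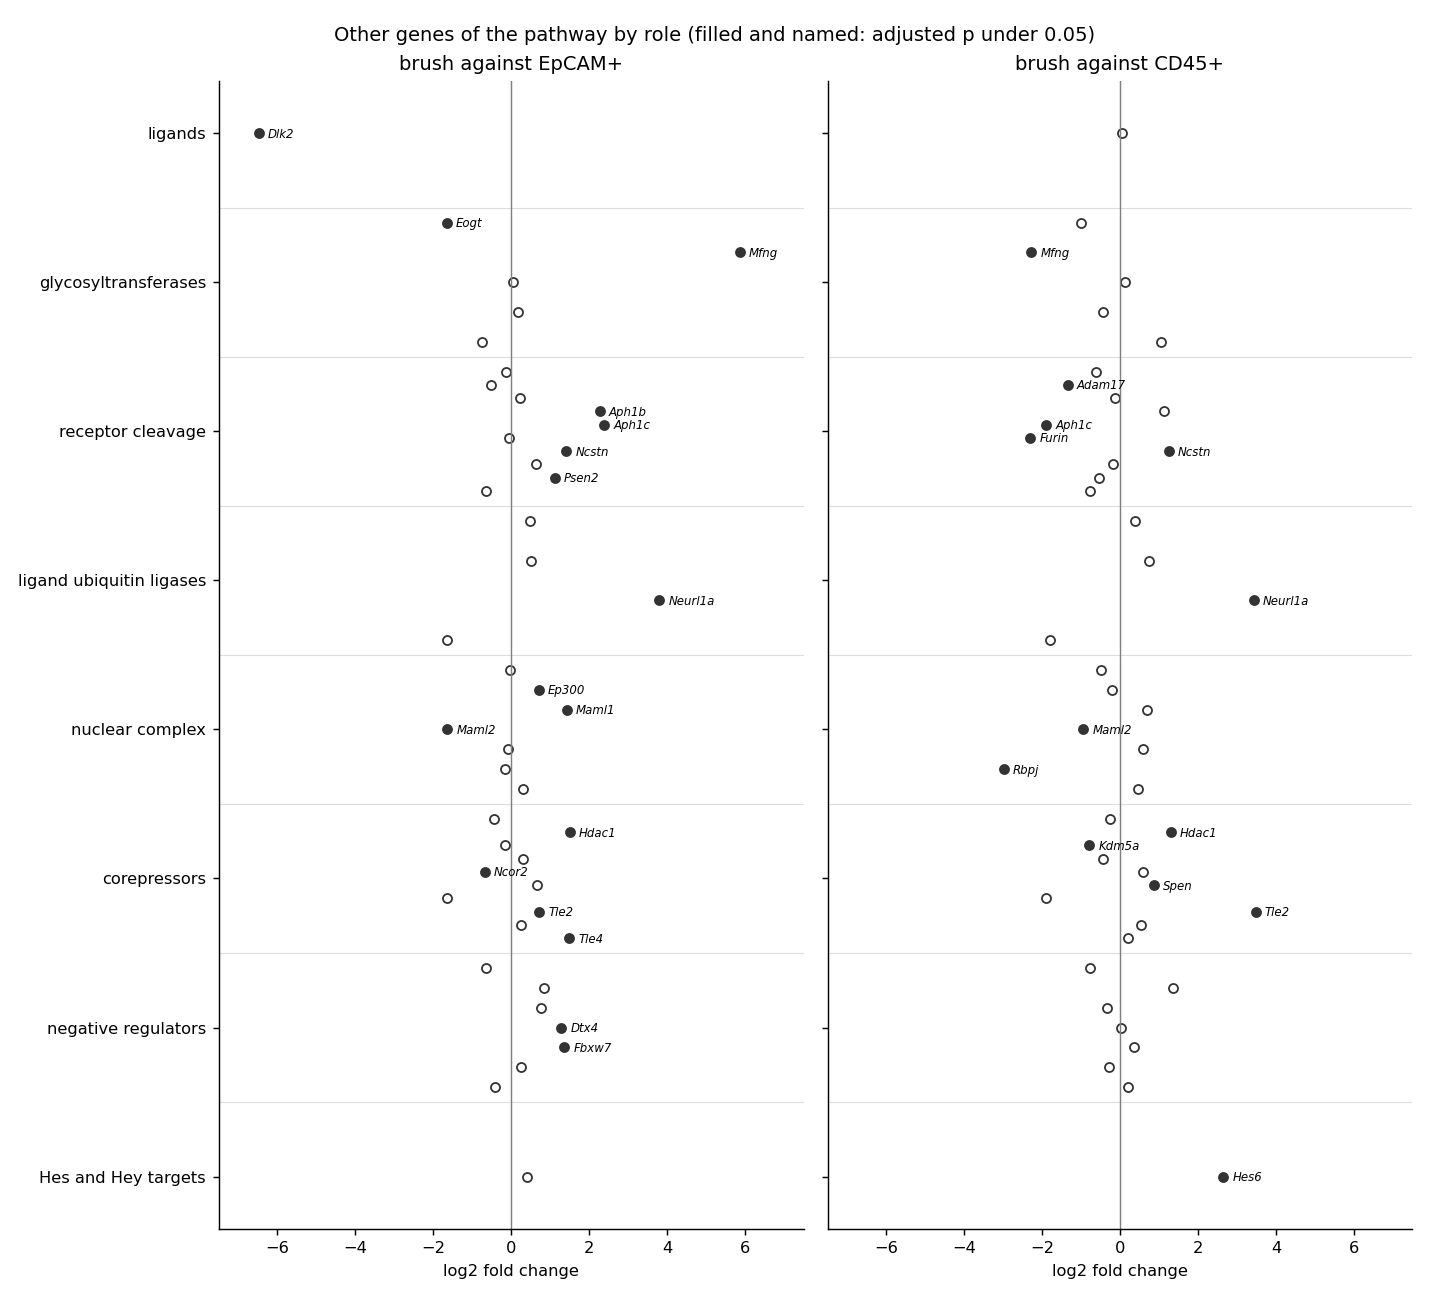
Each point is 1 tested pathway gene that is not a member, placed by its log2 fold change in brush against EpCAM+ cells (left) and brush against CD45+ cells (right) and grouped by role down the page. Vertical position within a role has no meaning. Filled, named points passed an adjusted p of 0.05, 17 in the left panel and 13 in the right.

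Of 7 tested genes listed here, from general knowledge, as negative regulators, 2 were higher in brush than in EpCAM+ cells, where 18.3% of all genes tested were. They were Fbxw7, a ubiquitin ligase subunit that marks the Notch intracellular domain for degradation (1.36 ± 0.34, adjusted p = 0.0024), and Dtx4 (1.28 ± 0.30). Numb, an inhibitor of Notch, averaged 11.97 ± 2.96 CPM in brush cells, 15.7 ± 6.21 in EpCAM+ cells and 8.97 ± 6.81 in CD45+ cells and did not pass in any comparison. Dtx1 was not tested and had 5 counts in brush cells, 14 in EpCAM+ cells and 137 in CD45+ cells. Of the other Hes and Hey genes only Hes6, which is not a typical Notch target and promotes neuronal differentiation in mouse, was tested. Hes6 averaged 102 ± 33.0 CPM in brush cells, 75.9 ± 48.4 in EpCAM+ cells and 15.3 ± 7.18 in CD45+ cells. It was higher in brush than in CD45+ cells (2.65 ± 0.45, adjusted p = 3.6e-05) and in EpCAM+ than in CD45+ cells (2.24 ± 0.44, adjusted p = 0.000217), and did not pass in brush against EpCAM+ cells (0.41 ± 0.33, adjusted p = 0.35). Heyl had 1 count in brush cells, 7 in EpCAM+ cells and 9 in CD45+ cells. Hes5, a Notch target that was not tested either, had 39 counts in brush cells, 3 in EpCAM+ cells and 11 in CD45+ cells. Its brush and EpCAM+ counts thus ran opposite to those of Hes1 and Hey1. Most of the brush counts came from brush replicate 6 (23 counts) and brush replicate 7 (12 counts).

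The EpCAM+ libraries held markers of several epithelial cell types. Beside each count of markers lower in brush cells, 22.0% of all genes tested were lower there than in EpCAM+ cells. Of 10 basal cell markers, 9, Dlk2 among them, were lower in brush than in EpCAM+ cells. Their sums were 69.6 to 313 CPM in brush, 6826 to 10225 in EpCAM+ and 17.2 to 93.0 in CD45+ libraries. Ngfr was uncalled, at 35.6 CPM in brush and 39.1 in EpCAM+ cells. All 9 tested club and goblet cell markers were lower in brush cells, with sums of 376 to 3343 CPM in brush, 33328 to 155023 in EpCAM+ and 261 to 1481 in CD45+ libraries. Ciliated cell markers, 6 of 8 lower in brush cells, summed to 403 to 977 CPM in brush, 727 to 1896 in EpCAM+ and 232 to 699 in CD45+ libraries. Most of the brush sum was Tubb4b (444 CPM in brush and 488 in EpCAM+ cells), which was uncalled, as was Rsph1. The 6 called ran from Tppp3 (123 CPM in brush and 590 in EpCAM+ cells) to Cdhr3 (0.142 and 6.42). All 6 proliferation genes were lower in brush cells, with sums of 5.66 to 19.8 CPM in brush, 69.8 to 261 in EpCAM+ and 106 to 453 in CD45+ libraries. Fibroblast markers summed to 3.63 to 26.4 CPM in brush, 251 to 521 in EpCAM+ and 5.98 to 39.5 in CD45+ libraries. Of these 8 markers 2 were tested, and they went opposite ways: Dcn, which made up most of the EpCAM+ sum, was lower in brush cells (5.59 CPM in brush and 367 CPM in EpCAM+ cells), and Pdgfra was higher (7.52 CPM in brush and 0.0853 CPM in EpCAM+ cells). The sum of smooth muscle and pericyte markers reached at most 14.4 CPM in any library. The part of these cell types in the Notch gene differences was not tested.

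For Notch1, Hes1 and Lfng, the genes with the most similar pattern were sought over the 18 libraries among 10840 genes, by the mean absolute difference between centred log2(CPM + 1) values. For Notch1 they were Sat1, Casp4 and D16Ertd472e, at 0.52, 0.57 and 0.58, where the median over genes was 2.16. For Hes1 they were Igfbp7, Capsl and Hbegf, at 0.63, 0.73 and 0.74, where the median was 2.04. For Lfng they were Leng9, Gm6485 and Sdccag8, at 0.53, 0.55 and 0.59, where the median was 1.18. Casp4, for example, averaged 3.03 CPM in brush, 67.9 in EpCAM+ and 77.1 in CD45+ cells. The libraries share depth and group structure, so these distances are descriptions.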

How the data were processed

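Cells were sorted from dispase- and papain-digested tracheas after exclusion of dead cells with propidium iodide, per the labels' protocols, and 18 libraries were grouped by their labels. The authors deposited whole-number counts for 26327 genes. Per the file headers, they also deposited RSEM expected counts and TPM for 47729 identifiers, of which 47224 had a symbol in GENCODE vM21. A deposited table of normalized signal equals the counts divided by 1 factor per library and was not used. The submitters' processing notes name the build mm10 and, in no order, STAR 2.4.2a, RSEM 1.2.21, featureCounts and DESeq2. Neither annotation nor strand setting is given in the sources used here, so overlapping and near-identical genes are uncertain.

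Counts were tested with edgeR 4.0.16 (R 4.3.3), with TMM scaling and filterByExpr by group (a cutoff of 2.43 CPM on unscaled library totals). The quasi-likelihood F test was run in 1 fit of all 18 libraries, with Benjamini-Hochberg adjustment over 13418 genes. Standard errors are the log2 fold change over the square root of F. CPM are counts scaled to TMM library size, and TPM served to compare genes with each other. Low values rest on few counts, and a gene with no count over a group can have up to 3 counts by counting error alone. Alternatives were RLE scaling, DESeq2 1.42.0, voom in limma 3.58.1, RSEM expected counts rounded to whole numbers, other filters, a fit of 2 groups, leaving out libraries or ribosomal RNA genes, and a replicate block. Libraries of 1 group differed by more than sampling noise (lowest chi-square per degree of freedom 8.75, 6.11 and 18.9 in brush, EpCAM+ and CD45+ cells), so none was taken for a copy.

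The members, gene lists and rules were chosen with earlier results of these data known. All members were named, with 11 further genes fixed by name, of which 1 is not reported here, and per role the called gene of the largest fold change in each direction whose ranges were apart. Others named for completeness of a count (Ncstn, Psen2, Dtx4 and Tek) were chosen after their values were seen. Aph1c and Tle4 were named by the rule in EpCAM+ against CD45+ cells only, and their other values were added after they were seen. Also chosen after their values were seen were Hes5, Dll3, Ptprc, Lcp1, Cd52, Coro1a, Tyrobp, Cd53, Ngfr, Tubb4b, Rsph1, Tppp3 and Cdhr3.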

Additional observations from a re-analysis of the deposited data

Results flagged for a closer look

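In 9 of 30 sets of 1 member in 1 group, the highest or lowest library lay farther from the others than Dixon's limit allows. That limit is set to be passed by about 1 in 20 sets of normal values of equal spread. These libraries differ in depth and several of the values rest on few counts, so 9 of 30 cannot be read as an excess. Brush replicate 4, a shallow library, was highest for Notch1 (11.3 CPM from 6 counts, the others 0.427 to 3.04) and for Notch3 (5.66 CPM from 3 counts, the others 0 to 1.08). Brush replicate 6 was highest for Jag1 (10.2 CPM from 48 counts, the others 0 to 4.33) and for Jag2 (57.6 CPM from 270 counts, the others 22.6 to 36.8), so these ligand values do not rest on a few counts. Brush replicate 5 was highest for Nrarp (6.53 CPM from 12 counts, the others 0.427 to 1.90). CD45+ replicate 1, the shallowest library, was lowest for Notch2 (71.8 CPM from 25 counts, the others 171 to 182) and highest for Hes1 (14.4 CPM from 5 counts, the others 0.219 to 1.52). EpCAM+ replicate 6 was highest for Notch3 (10.1 CPM from 35 counts, the others 1.08 to 3.71). EpCAM+ replicate 5 was highest for Lfng (10.8 CPM from 35 counts, the others 0.802 to 5.10).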

How the results depend on the processing

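Over 28 alternatives per comparison, the number of members called was 6 to 9 in brush against EpCAM+ cells (8 as reported), 4 to 5 in brush against CD45+ cells (4) and 5 to 7 in EpCAM+ against CD45+ cells (6), and no total over members, pathway list or all genes moved by more than 1.5 times. By direction, the members called higher in brush than in EpCAM+ cells were 0 to 1 (1 as reported, Lfng) and those called lower in EpCAM+ than in CD45+ cells 1 to 2 (2). Of the members, Lfng alone lost a call in any fit that held it. Lfng lost its call in 9 alternatives in each of the 2 comparisons where it had one, with adjusted p of 0.0513 to 0.104 in EpCAM+ against CD45+ cells. Values under an alternative that newly passed, beside those given for Dll1 and Jag1 above, were Jag1 in brush against CD45+ cells with voom (-2.20, adjusted p = 0.015), Jag1 in EpCAM+ against CD45+ cells with voom (1.52, adjusted p = 0.0323) or only those groups (1.44, adjusted p = 0.0269), and Notch3 in the same comparison with DESeq2 (2.14, adjusted p = 0.0435) or without EpCAM+ replicate 4 (2.20, adjusted p = 0.044).

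The sign turned in values that never passed. Nrarp in brush against EpCAM+ cells was 0.00607 with DESeq2, 0.0254 with no filter and -0.68 to 0.335 on leaving out 1 library. On leaving out 1 library, Notch3 in brush against CD45+ cells was -0.31 to 0.352, and Notch1 in EpCAM+ against CD45+ cells was -0.0394 (without CD45+ replicate 2) to 0.39. The causes were not tested.

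Replicate numbers shared between groups were not taken to pair the libraries, since not every pair correlated above 0.1: deviations of same-numbered libraries correlated at -0.0691 to 0.235 in brush against EpCAM+ cells, with 4 of 7 pairs over 0.1, and 1 of 4 pairs exceeded it in each of the other comparisons. With the replicate block, Lfng in brush against CD45+ cells was 0.0501 and Notch3 0.0933, both uncalled, and Dll1 in brush against EpCAM+ cells (-1.35, adjusted p = 0.0289) and Jag1 in brush against CD45+ cells (-1.98, adjusted p = 0.0486) passed.

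Leaving out ribosomal RNA genes shifted the median log2 fold change of all genes by -0.16 in brush against CD45+ cells, and no member called there changed direction. Notch3 fell below the filter in 7 of 28 alternatives and Nrarp in 3, RSEM counts among them, as did Hes1 and Hey1 in the fit of brush and CD45+ libraries alone, and these gave no value. Depth limits Notch3, Nrarp and the brush values of Hes1, Hey1 and Notch1, each under 100 counts over a group.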
